A study of Mus musculus with 8 samples.

Results

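Cd34, Erg, Msi2, Trib2, Mycn, Sox4, Myb, Mef2c, Hlf and Mecom are genes of blood stem and progenitor cells that earlier work links to Meis1 in leukaemia. They were followed here through every probe set, a group of short array probes read as 1 value, that the platform annotation names with exactly 1 of these symbols. This gave 24 probe sets for the 10 genes, out of 45037 probe sets that were not controls. Levels are the deposited log2 expression values, in which a difference of 1 is a 2-fold change.

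The cells were primary bone marrow cells of C57BL/6 mice with a Cre-ERT2 recombinase knocked into the Rosa26 locus, immortalised in culture by retroviruses for Hoxa9 and for a floxed Meis1 cDNA. The first group, Hoxa9 and Meis1, was left without drug (4 arrays). In the second, Meis1 deleted, 2 µM 4-hydroxytamoxifen had been given to activate Cre and remove the Meis1 cDNA, which leaves Hoxa9 (4 arrays). Both groups carry Cre-ERT2 and the Hoxa9 virus, with interleukin-3 at 5 ng/ml and 10% serum in the medium. Only the Meis1 deleted group received the drug, so the effect of losing Meis1 and that of the drug or of active Cre cannot be told apart. No label says that the 4 arrays of a group are separate cultures, so a p-value here speaks only of the scatter of these arrays, and that scatter may be technical.

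Hoxa9 and Meis1 are homeobox transcription factors that bind DNA together and hold myeloid progenitors in a self-renewing state. The 10 genes fall into roles. Cd34 is a surface sialomucin of stem and progenitor cells. Erg is an ETS transcription factor needed for stem cell maintenance, and Msi2 is an RNA-binding protein that controls translation in the same cells. Trib2 is a pseudokinase that brings the myeloid factor C/EBPα to a ubiquitin ligase for degradation. Mycn, Sox4, Myb, Mef2c, Hlf and Mecom are transcription factors that appear in stem cell or leukaemia programmes.

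Promoters are shown for the genes whose probe sets changed most, Cd34, Erg and Msi2, and for Trib2, whose promoter held motifs of both partner proteins. They are RefSeq sequences of GRCm38.p6, 250 bases that end at the base before an annotated transcript start, 5′ to 3′ on the gene's strand. RefSeq entries were found for 10 of 10 genes, with 17 windows, since several genes have more than 1 start. Capitals mark TGACAG (the MEIS motif), TGATTNAT (a composite PBX-HOX motif) or CACGTG (the E-box bound by MYC proteins), each searched on both strands.
Cd34, chr1:194938571-194938820, plus strand: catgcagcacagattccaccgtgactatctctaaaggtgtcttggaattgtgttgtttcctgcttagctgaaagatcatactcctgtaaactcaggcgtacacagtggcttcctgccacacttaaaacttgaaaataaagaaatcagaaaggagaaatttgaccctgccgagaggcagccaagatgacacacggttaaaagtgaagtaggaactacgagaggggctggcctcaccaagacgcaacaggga
Erg, upstream start, chr16:95586594-95586843, minus strand: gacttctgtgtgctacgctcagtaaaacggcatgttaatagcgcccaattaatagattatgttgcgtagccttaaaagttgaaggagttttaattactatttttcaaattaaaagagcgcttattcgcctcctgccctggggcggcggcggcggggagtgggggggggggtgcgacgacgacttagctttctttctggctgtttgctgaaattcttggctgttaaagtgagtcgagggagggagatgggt
Erg, downstream start, chr16:95459349-95459598, minus strand: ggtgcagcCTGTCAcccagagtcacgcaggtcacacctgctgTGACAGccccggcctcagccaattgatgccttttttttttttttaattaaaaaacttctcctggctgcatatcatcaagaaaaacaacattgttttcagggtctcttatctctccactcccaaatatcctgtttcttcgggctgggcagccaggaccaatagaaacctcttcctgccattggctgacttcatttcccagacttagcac
Msi2, chr11:88718278-88718527, minus strand: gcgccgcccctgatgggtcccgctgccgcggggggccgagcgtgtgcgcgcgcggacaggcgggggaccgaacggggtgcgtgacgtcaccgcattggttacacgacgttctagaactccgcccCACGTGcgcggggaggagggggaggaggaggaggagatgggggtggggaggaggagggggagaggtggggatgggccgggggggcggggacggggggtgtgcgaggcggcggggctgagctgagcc
Trib2, chr12:15816786-15817035, minus strand: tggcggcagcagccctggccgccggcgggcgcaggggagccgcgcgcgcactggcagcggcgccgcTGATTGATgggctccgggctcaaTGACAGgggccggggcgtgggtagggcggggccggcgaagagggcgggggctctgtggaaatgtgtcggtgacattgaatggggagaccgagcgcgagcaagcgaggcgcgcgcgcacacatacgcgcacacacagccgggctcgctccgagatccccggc

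The MEIS motif was found in 3 of the 17 windows, 1 each of Erg, Trib2 and Mecom, and in 15.9% of all 32851 promoter windows of this length. The window at the downstream Erg start held it at 242 and at 208 bases before the start, counted to the first base of the match. In Trib2 the MEIS motif lay 161 bases and the PBX-HOX motif 184 bases before the start, and the latter was found in 2.82% of all windows. The E-box was found in 3 windows, all of them overlapping windows of Msi2, and in 6.02% of all. A match is a description of letters and not of binding. The Cd34 window held none of these 3 motifs, which says only that the letters are not in these 250 bases.

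Before the comparison, 1 array has to be set apart. Meis1 deleted replicate 1 read 0.72 more at the 3′ than at the 5′ control probe set of Gapdh, while the other 7 arrays lay between -0.07 and 0.04. On that array 371 of 27022 tested probe sets lay at least 1 log2 unit from the group median, against 0 to 5 on each of the others. The difference between groups in this 3′ to 5′ measure did not pass a two-sided exact permutation test (0.19, p = 0.486, smallest possible p 0.0286). The arrays also fell into 2 sets by a spiked hybridisation control, bioB. Set 1 held 3 deleted and 2 control arrays, and set 2 held 1 deleted and 2 control arrays. What these sets are is not stated in the sources used here. Results below are given with and without replicate 1, and within each set, where these change them.

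**Figure D1:**
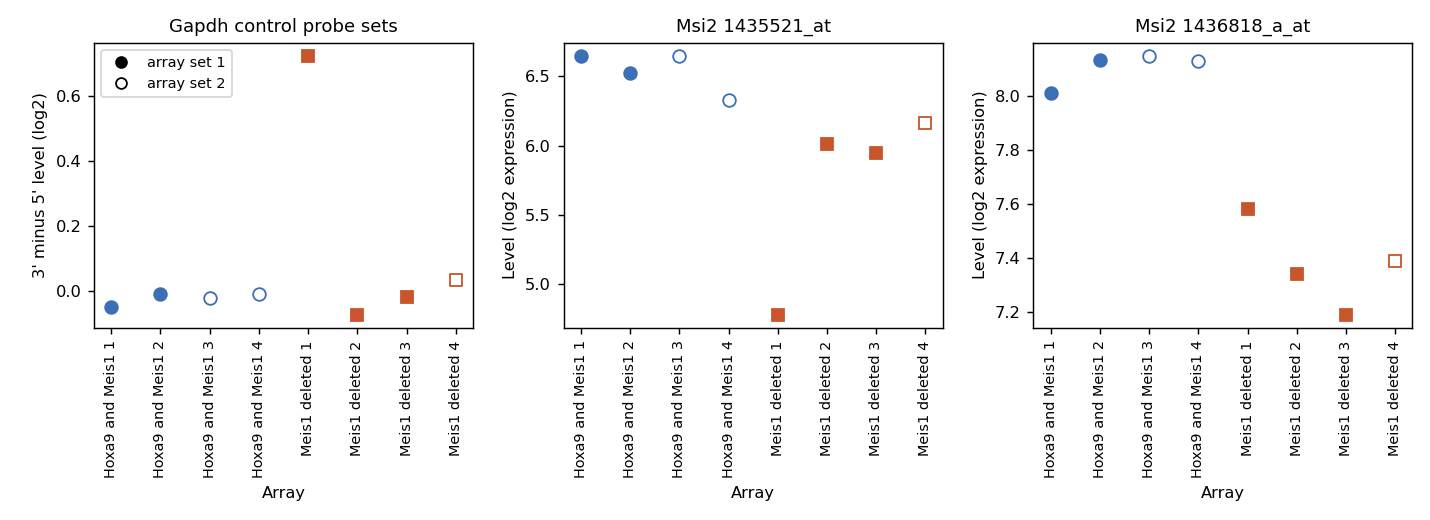
The left panel plots the 3′ minus 5′ level of the Gapdh control (log2) on each of the 8 arrays, and the other panels plot 2 probe sets of Msi2 (log2 expression). Circles are Hoxa9 and Meis1, squares Meis1 deleted, filled for array set 1 and open for set 2. Meis1 deleted replicate 1 stands at 0.72 on the left and at 4.78 for 1435521_PM_at, and at 7.58 for 1436818_PM_a_at, where the other deleted arrays read 7.19 to 7.39.

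The targeted gene could not be followed. The tested Meis1 probe set read 4.95, 5.08, 4.96 and 5.08 in Meis1 deleted cells and 5.07, 4.96, 4.96 and 5.00 in cells with Hoxa9 and Meis1 (log2 fold change 0.02 ± 0.05 SE, limma adjusted p = 0.765). Its second probe set lay under the filter threshold at 3.78 ± 0.07 and 3.64 ± 0.05 (SD, n = 4). Whether either probe set lies in the viral cDNA is not given, so the deletion and the group labels remain unchecked by these values. Hoxa9 read 8.95, 9.98, 9.97 and 10.07 after the deletion and 10.11, 10.17, 10.21 and 9.83 before it, and did not pass (-0.34 ± 0.23, adjusted p = 0.304). The low Hoxa9 value is that of replicate 1, and without that array the difference was -0.07 (adjusted p = 0.561). Within array sets 1 and 2 it was -0.50 and 0.05, and neither passed.

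Of the 24 probe sets 17 were tested, and 7 lay under a threshold of 4.29 that left out the lowest 40% of probe sets by mean over all arrays. After the deletion 6 of the 17 were lower and 1 was higher at a limma adjusted p under 0.05. Over all 27022 probe sets tested, 31.3% passed, 17.1% lower and 14.2% higher. The 6 and 1 of 17 were not tested against these shares. The lower probe sets belong to Cd34, Erg, Msi2, Mycn and Sox4, and the higher one to Myb. Mef2c and Hlf had tested probe sets that did not pass, while Trib2 and Mecom had none above the threshold. The groups did not overlap at 8 probe sets that were lower and at 1 that was higher, where the shares over all tested probe sets were 18.8% and 15.7%, together 34.5%. The median log2 fold change over the 17 was -0.17, beside -0.02 over all tested probe sets. In bulk samples, fewer cells that express a gene and less RNA per cell cannot be told apart.

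**Figure D2:**
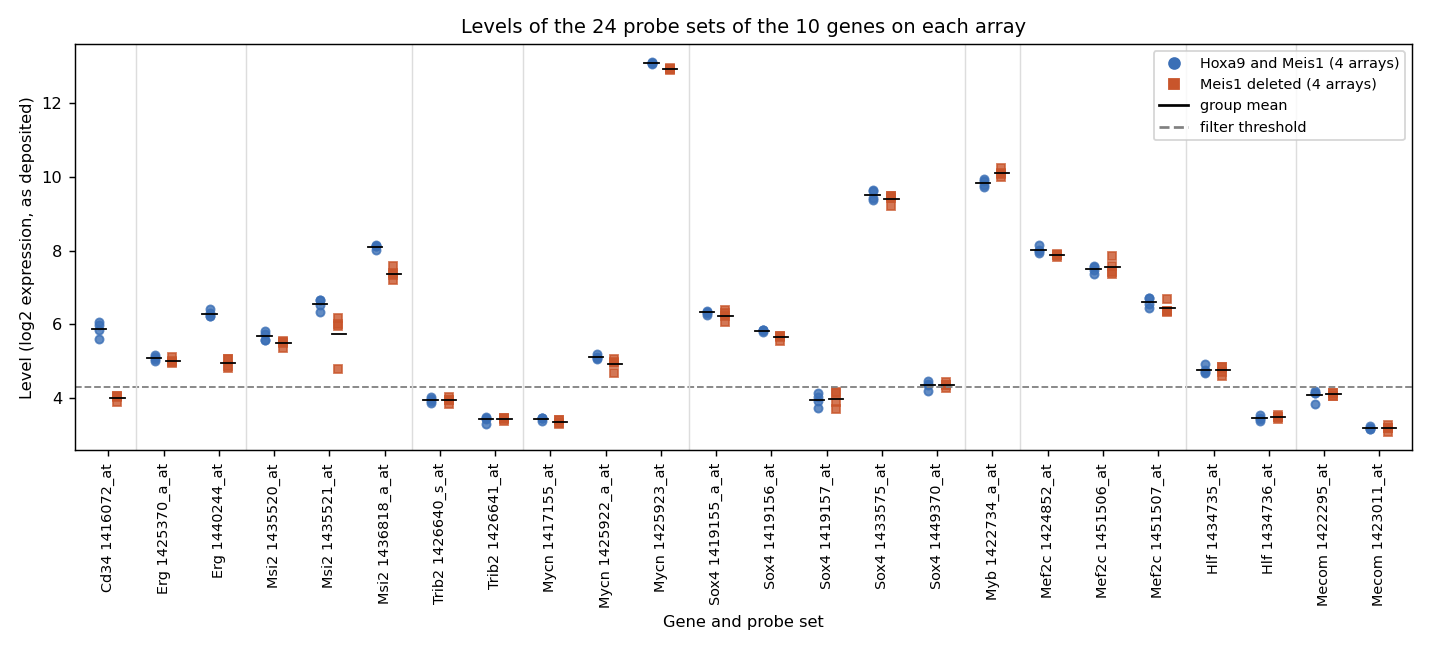
Each column is 1 probe set of the 10 genes, with its level on each array (log2 expression, y axis) for cells with Hoxa9 and Meis1 (circles) and Meis1 deleted cells (squares), the group means (lines) and the filter threshold of 4.29 (dashed). The groups lie farthest apart for Cd34 and for Erg 1440244_PM_at, whose group means are 5.87 and 4.00, and 6.29 and 4.94.

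Cd34, the surface marker, showed the largest difference of the 10 genes. Its probe set 1416072_PM_at read 5.99, 5.59, 5.85 and 6.07 in cells with Hoxa9 and Meis1 and 4.05, 4.03, 4.04 and 3.88 after the deletion. Every deleted array lay more than 1 log2 unit under every control array. The log2 fold change was -1.87 ± 0.10 (SE, adjusted p = 9.14e-07), a level 3.66-fold lower on the linear scale. Falls of at least 2-fold were called for 0.625% of all tested probe sets. The deleted arrays all read under the filter threshold, so Cd34 was tested only through its level in the control cells, and the size of its fall is uncertain. With an offset of 64 added on the linear scale it was -0.62 (adjusted p = 1.70e-05). It read -1.89 without Meis1 deleted replicate 1, and -1.75 and -2.08 within array sets 1 and 2. Its adjusted p ran from 1.94e-07 to 0.00573 over 20 alternatives.

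Erg, the ETS factor, fell at 1 probe set and did not pass at the other. Probe set 1440244_PM_at read 6.23, 6.30, 6.22 and 6.40 in control cells and 5.04, 5.05, 4.87 and 4.81 in deleted cells (-1.35 ± 0.07, adjusted p = 9.72e-07). The groups were separated by more than 1 log2 unit. With the offset of 64 the fall was -0.59, and within the array sets it was -1.28 and -1.51. The second probe set, 1425370_PM_a_at, read 5.10, 5.16, 4.99 and 5.04 before and 4.96, 5.10, 4.99 and 4.94 after the deletion, with overlapping groups (-0.08 ± 0.06, adjusted p = 0.341). The platform annotation does not place either probe set on the Erg transcripts, which begin at 3 promoter windows in the table used here, and the probe sets were not tested against each other.

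Msi2, the RNA-binding protein, was lower at all 3 of its probe sets, with no overlap between groups at any, and 2 of them passed. Probe set 1436818_PM_a_at read 8.01, 8.13, 8.15 and 8.13 in control cells and 7.58, 7.34, 7.19 and 7.39 in deleted cells (-0.73 ± 0.08, adjusted p = 1.26e-04), a 1.66-fold lower level. This call held in each of 21 alternatives, with values from -0.81 to -0.56.

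A further probe set of Msi2, 1435521_PM_at, read 6.65, 6.52, 6.65 and 6.33 in control cells and 4.78, 6.01, 5.95 and 6.17 in deleted cells (-0.81 ± 0.27, adjusted p = 0.0461). The lowest value is that of replicate 1. Without it the difference was -0.50 with a smaller adjusted p (0.00202). The call was lost in 12 of 20 alternatives, with adjusted p up to 0.230, among them the omission of Meis1 deleted replicate 2 or 3 or of any 1 of the 4 Hoxa9 and Meis1 arrays (-0.91 to -0.78), and within the array sets the fall was -1.01 and -0.32. The last probe set, 1435520_PM_at, read 5.57 to 5.81 before and 5.36 to 5.55 after (-0.19 ± 0.07, adjusted p = 0.0718), and it passed with array weights (adjusted p = 0.0347, lowest of a range up to 0.330).

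**Figure D3:**
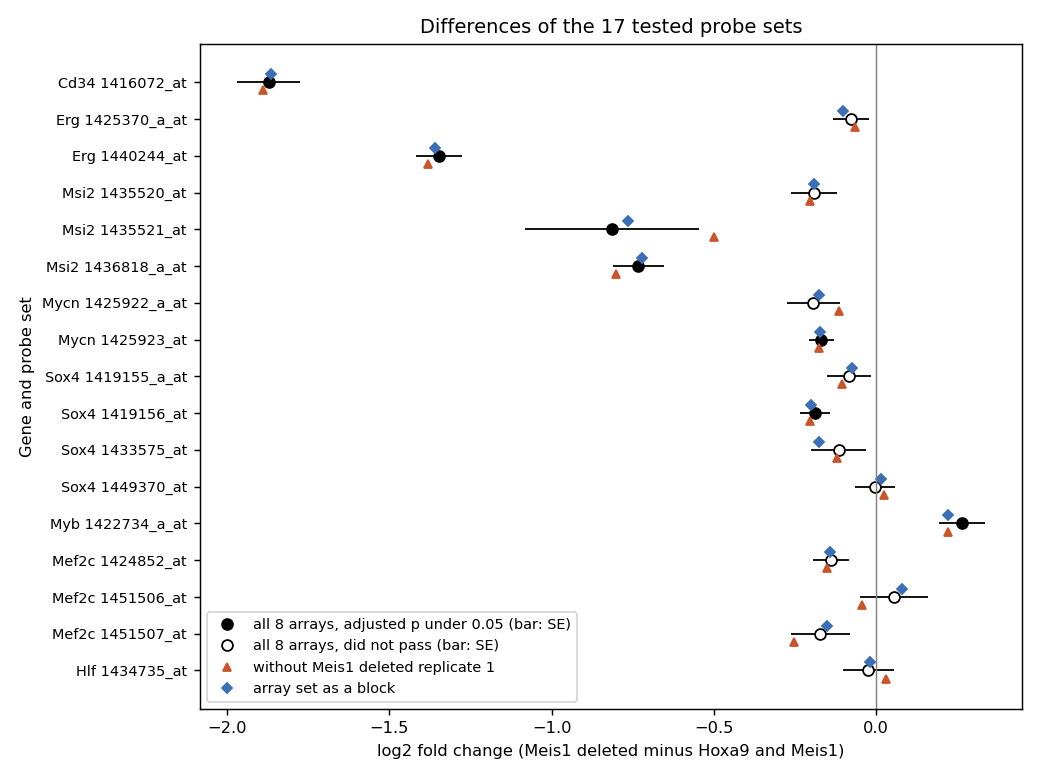
The log2 fold change (x axis, Meis1 deleted minus Hoxa9 and Meis1) of the 17 tested probe sets (y axis), with limma's SE as bars. Filled points passed at an adjusted p under 0.05, triangles leave out Meis1 deleted replicate 1, and diamonds use the array set as a block. Msi2 1435521_PM_at moved most without replicate 1, from -0.81 to -0.50.

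Mycn is the neural relative of Myc, which binds the E-box as a dimer with Max. Its 3 probe sets read at very different heights. Probe set 1425923_PM_at read 13.11, 13.10, 13.08 and 13.11 in control cells and 12.96, 12.94, 12.93 and 12.91 in deleted cells (-0.17 ± 0.04, adjusted p = 0.00960). The groups did not overlap and the SDs were 0.01 and 0.02, and these levels lie just under the highest value of the whole table (13.22). Whether signal at this height still follows the amount of RNA was not tested, so the size and the small spread of this difference are uncertain. Within the array sets the fall was -0.16 and -0.19 and did not pass (adjusted p = 0.114 and 0.133).

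The other probe sets of Mycn gave no such call. Probe set 1425922_PM_a_at read 5.18, 5.04, 5.08 and 5.12 before and 4.67, 4.96, 4.96 and 5.06 after the deletion, with overlapping groups (-0.19 ± 0.08, adjusted p = 0.105). Without Meis1 deleted replicate 1, its lowest array, the difference was -0.11, and within the array sets it was -0.25 and -0.04, none of which passed. At 1417155_PM_at all 8 arrays read between 3.28 and 3.45, under the threshold. Levels of different probe sets are not comparable, so no height here gives the amount of Mycn RNA, and the sources used here do not show which of the 3 follows it best.

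Sox4, an SRY-related factor of early progenitors, had 5 probe sets, 4 of them tested, and 1 passed. This was 1419156_PM_at, which read 5.80, 5.84, 5.84 and 5.83 in control cells and 5.68, 5.65, 5.67 and 5.55 in deleted cells (-0.19 ± 0.05, adjusted p = 0.0120). The lowest control array, at 5.80, lay above the highest deleted array, at 5.68. Within the array sets the fall was -0.15 and -0.28 and did not pass (adjusted p = 0.146 and 0.0613).

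Sox4 probe set 1433575_PM_at read 9.65, 9.63, 9.37 and 9.43 before and 9.43, 9.48, 9.49 and 9.22 after the deletion, with overlapping groups (-0.11 ± 0.08, adjusted p = 0.349). In both groups its arrays of set 2 read lower than those of set 1. With the array set as a block the difference was -0.17 and passed (adjusted p = 0.0124, in a range over alternatives up to 0.657), and it was -0.17 and -0.18 within the sets. Probe sets 1419155_PM_a_at (-0.08 ± 0.07) and 1449370_PM_at (-0.00 ± 0.06) did not pass, with adjusted p of 0.395 and 0.982.

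Myb, a factor that keeps progenitors proliferating, was the single gene of the 10 with a probe set that rose. It read 9.96, 9.90, 9.78 and 9.72 in control cells and 10.23, 10.10, 10.09 and 9.99 after the deletion (0.27 ± 0.07, adjusted p = 0.0192). The groups did not overlap, though deleted replicate 4, at 9.99, lay close to control replicate 1, at 9.96. The rise was 0.22 without Meis1 deleted replicate 1 (adjusted p = 0.0273) and with the array set as a block (adjusted p = 0.0101). It did not pass without Hoxa9 and Meis1 replicate 3 (0.25, adjusted p = 0.0574) or replicate 4 (0.23, adjusted p = 0.0545), or within the array sets (0.21 and 0.24), where fewer arrays were tested.

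Mef2c, a MADS-box factor of lymphoid and myeloid progenitors, had 3 tested probe sets and none passed. Probe set 1424852_PM_at read 8.15, 7.93, 8.01 and 7.98 before and 7.92, 7.84, 7.87 and 7.89 after the deletion (-0.14 ± 0.06, adjusted p = 0.0938), without overlap between the groups. At 1451507_PM_at the control arrays read 6.45, 6.56, 6.71 and 6.72 and the deleted arrays 6.68, 6.37, 6.34 and 6.36 (-0.17 ± 0.09, adjusted p = 0.199). The high deleted value is again replicate 1, and without it the difference was -0.25 and passed (adjusted p = 0.0204, in a range over alternatives up to 0.871). It also passed with array weights (-0.23, adjusted p = 0.0212) and within array set 2 (-0.36, adjusted p = 0.0402), but within set 1 it was -0.04 (adjusted p = 0.871). The third, 1451506_PM_at, read 7.47, 7.36, 7.60 and 7.55 before and 7.85, 7.42, 7.36 and 7.57 after (0.06 ± 0.11, adjusted p = 0.726), and its sign turned to -0.04 without replicate 1.

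Hlf, a PAR bZIP factor of stem cells, read 4.70, 4.76, 4.68 and 4.93 in control cells and 4.58, 4.84, 4.85 and 4.71 in deleted cells at 1434735_PM_at (-0.02 ± 0.08, adjusted p = 0.850). The groups overlapped throughout. Its second probe set read 3.36 to 3.54 over all arrays. Mecom, the zinc finger factor also called Evi1, read 3.83 to 4.18 at 1422295_PM_at and 3.07 to 3.27 at 1423011_PM_at. Trib2 read 3.84 to 4.03 at 1426640_PM_s_at and 3.29 to 3.49 at 1426641_PM_at. Over the 7 probe sets under the threshold, Mycn and Sox4 included, the group means differed by -0.07 to 0.03 and the groups overlapped at all 7. No detection call was used, so these levels are low values of the table without a call of presence, and a change of a weakly expressed transcript was not measurable at this signal.

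The spread among the tested probe sets was small beside the larger falls. The SD within a group had a median of 0.10 and ran from 0.01 for Mycn 1425923_PM_at to 0.64 for Msi2 1435521_PM_at in deleted cells. Cd34, Erg 1440244_PM_at and Msi2 1436818_PM_a_at kept an adjusted p under 0.05 in all alternatives in which they were tested, including within each array set. The calls of Mycn, Sox4 and Myb rest on differences of 0.27 or less and did not pass within the sets.

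The relatives of these genes were read next, from a list of paralogues and family members. Each gene of a list was taken at its tested probe set with the highest mean. Read in that way, 4 of 8 of the progenitor genes were lower and 1 was higher (median -0.15), beside 17.0% lower and 17.7% higher, 34.7% in all, among the 11836 genes tested (median 0.00). Of 19 relatives tested, 6 passed lower and 1 higher, with a median of -0.04. Myc, the chief relative of Mycn, fell from 10.55 ± 0.05 to 9.65 ± 0.18 (SD, n = 4; log2 fold change -0.90 ± 0.09, adjusted p = 5.18e-05). Its 4 deleted arrays, at 9.88, 9.71, 9.51 and 9.49, all lay under the lowest control array, at 10.49.

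Trib2 itself was under the threshold, and both of its relatives fell, Trib1 at 1 of its 2 tested probe sets. Trib1 read 6.45 to 6.54 before and 5.70 to 6.01 after the deletion (-0.62 ± 0.07, adjusted p = 2.12e-04), and Trib3, which is induced in stress responses, fell from 5.81 ± 0.08 to 5.26 ± 0.10 (-0.55 ± 0.06, adjusted p = 1.65e-04). Of the MEF2 factors Mef2d fell by 0.39 at 1 of its 2 tested probe sets (SE 0.06, adjusted p = 6.12e-04).

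Among the ETS factors, named here after their values were seen, Ets2 fell by 0.64 (adjusted p = 0.00134) and Etv6 fell by 0.22 (adjusted p = 0.0315), whereas Ets1 rose by 0.38 (adjusted p = 0.0198). Fli1, the closest relative of Erg, read 10.01 ± 0.12 before and 10.31 ± 0.22 after and did not pass (0.30 ± 0.11, adjusted p = 0.0670, 0.0319 to 0.191 over 21 alternatives). Ets1 did not pass without Hoxa9 and Meis1 replicate 3 or replicate 4 (0.33 and 0.34), and Etv6 did not pass without Meis1 deleted replicate 2 or 3 or Hoxa9 and Meis1 replicate 1, 3 or 4 (Etv6, -0.23 to -0.19). Fli1 passed with the array set as a block (0.35, adjusted p = 0.0319), with quantile normalization (0.31, adjusted p = 0.0471) and without Meis1 deleted replicate 2 or replicate 3 (0.36 in each). Over alternatives the adjusted p of Ets2 ran up to 0.0593, that of Etv6 up to 0.267 and that of Ets1 up to 0.172. Whether the difference of Erg is unlike that of its relatives was not tested.

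Partners and targets of the 10 genes were read from a further list, of which 10 were tested, 3 passed lower and 1 higher (median -0.03). The shares over all genes tested were 17.0% lower and 17.7% higher. Hdac7, a deacetylase that binds and represses MEF2 factors, fell from 7.03 ± 0.10 to 6.48 ± 0.11 (-0.55 ± 0.07, adjusted p = 3.20e-04). Syncrip, an RNA-binding partner of Msi2, fell at 2 of its 4 tested probe sets, the highest of them from 9.35 ± 0.06 to 8.94 ± 0.06 (-0.42 ± 0.05, adjusted p = 2.94e-04). Cebpa, the gene of the factor that Trib2 targets as a protein, fell from 8.56 ± 0.04 to 8.20 ± 0.09 (-0.36 ± 0.06, adjusted p = 0.00109, up to 0.0788 over alternatives). Aurka, a mitotic kinase that stabilises the N-Myc protein, rose from 8.66 ± 0.04 to 8.97 ± 0.14 (0.31 ± 0.07, adjusted p = 0.00872, up to 0.140 over alternatives). RNA levels say nothing of the amount of these proteins.

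Other genes tied to Hoxa9 and Meis1 moved both ways. Of 17 tested, 4 passed lower and 4 higher, with a median of 0.01, beside 17.0% lower and 17.7% higher over all genes tested. The lower ones were the cytokine receptor Flt3 (5.81, 5.92, 5.78 and 5.62 to 4.91, 5.21, 4.98 and 4.84, adjusted p = 1.57e-04), the vesicle protein Sytl1 (-0.40 ± 0.08, adjusted p = 0.00352), and the cell cycle genes Cdk6 (-0.33 ± 0.04, adjusted p = 4.71e-04) and Ccnd3 (-0.26 ± 0.05, adjusted p = 0.00284). Cdk6 passed at 2 of its 3 tested probe sets. Within array set 2 Sytl1 (-0.31, adjusted p = 0.102), Cdk6 (-0.30, 0.0535), Ccnd3 (-0.22, 0.106) and Bcl2 (0.38, 0.0613) did not pass, and neither did Sytl1 within set 1 (-0.44, adjusted p = 0.0578). The higher ones were the growth factor Igf1 (1.77 ± 0.08, adjusted p = 4.31e-07), the kinase Camk2d (1.32 ± 0.19, adjusted p = 6.78e-04), the LIM adaptor Lmo2 (0.59 ± 0.04, adjusted p = 5.97e-06) and the survival gene Bcl2 (0.35 ± 0.06, adjusted p = 0.00187). With an array left out the rise of Camk2d was 1.11 to 1.43. Ccnd3 and Bcl2 were named after their values were seen.

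In the list of stem and progenitor genes, which shares Lmo2 with the one before, 17 were tested, 4 passed lower and 2 higher (median -0.08). These counts stand beside 17.0% lower and 17.7% higher over all genes tested. Gfi1b, a repressor of early and megakaryocyte-erythroid cells, fell from 5.66 ± 0.09 to 5.01 ± 0.06 (-0.65 ± 0.06, adjusted p = 3.61e-05). Gata2, a stem cell factor, fell by 0.19 (adjusted p = 0.0208, up to 0.329 over alternatives; lost without Meis1 deleted replicate 2 or Hoxa9 and Meis1 replicate 2 or 3), and Bmi1, a Polycomb protein of self-renewal, rose by 0.18 (adjusted p = 0.0100, up to 0.147). Lyl1 and Egr1, named after their values were seen, fell by 0.19 and fell by 0.17 (adjusted p = 0.0437 and 0.0296), and each lost its call in 9 of 21 alternatives, Lyl1 without any 1 array but Meis1 deleted replicate 1 and Egr1 without any 1 but Meis1 deleted replicate 1 or Hoxa9 and Meis1 replicate 2. Kit, the stem cell factor receptor that often accompanies Cd34, did not pass (-0.08 ± 0.12, adjusted p = 0.656). This rests on Meis1 deleted replicate 1, where Kit read 8.11. The other deleted arrays read 7.50 to 7.67, all under the control arrays at 7.76 to 7.83. A fit of Kit without replicate 1 is not given here, so its result does not show that Kit was unchanged.

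**Figure D4:**
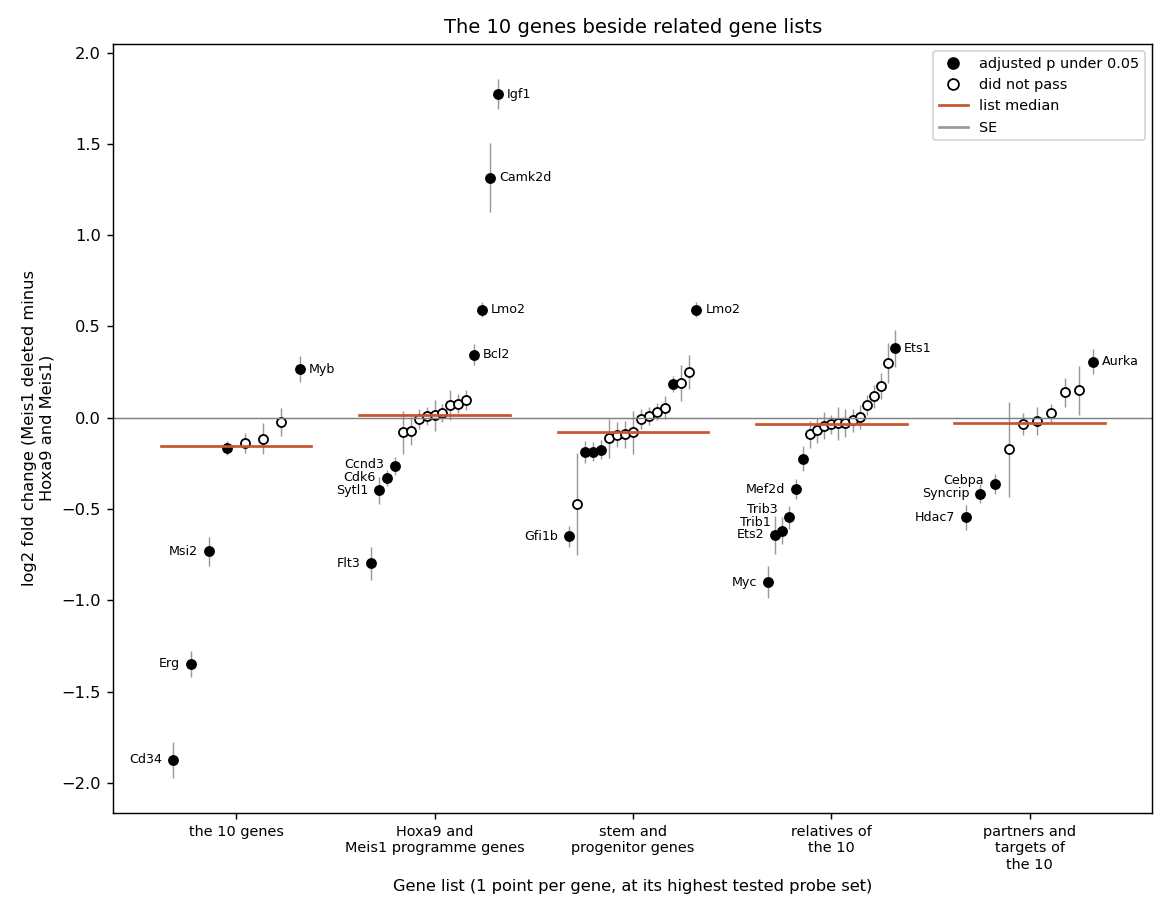
The log2 fold change (y axis, Meis1 deleted minus Hoxa9 and Meis1, with limma's SE) of each tested gene, 1 point per gene at its highest tested probe set, for the 10 genes and the related lists (x axis). Filled points passed at an adjusted p under 0.05, names are given for those with a change of at least 0.25, and lines are medians, which run from -0.15 for the 10 genes to 0.01 for the Hoxa9 and Meis1 programme.

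Markers of other cell types were read to see what moved with these falls. Their counts, here and for the lineages below, stand beside 17.0% lower and 17.7% higher over all genes tested. The labelled cell type, an immortalised myeloid cell, showed the granule protease genes of early myeloid cells at high levels in both groups, with Ctsg at 13.17 ± 0.04 before and 13.19 ± 0.01 after and Prtn3 at 12.64 ± 0.01 and 12.52 ± 0.03. Of the 7 immature myeloid markers, Cd34 and Kit among them, 3 passed lower and 2 higher. Beside Cd34, the protease genes Elane (-0.50 ± 0.13, adjusted p = 0.0140) and Prtn3 (-0.12 ± 0.04, adjusted p = 0.0442) fell, whereas the peroxidase gene Mpo (0.59 ± 0.08, adjusted p = 5.45e-04) and Ms4a3 (0.21 ± 0.05, adjusted p = 0.00990) rose. Elane and Mpo were named after their values were seen. On Meis1 deleted replicate 1 Elane read 10.37, against 10.84 to 11.01 on the other deleted arrays. Mpo read 11.10 there, against 10.74 to 10.88. All 10 macrophage markers passed higher after the deletion, and the log2 of their summed linear level rose from 11.4 to 11.5 in control arrays to 13.6 to 13.7 in deleted arrays. The median log2 fold change of the 10 was 3.75, with a range of 0.40 to 6.43. Of the 3 with the highest mean level, Gpnmb rose by 3.55, Cd68 rose by 0.91 and Adgre1 rose by 0.40. C1qa, named after its values were seen, read 3.86 in control cells, under the threshold. It was tested only through its level in deleted cells. Of 7 neutrophil markers 6 passed higher, and their summed level went from 13.8 to 13.9 up to 14.6 in each deleted array. Ngp rose by 0.94, S100a9 by 0.64 and S100a8 by 0.46. Both lists moved in the direction opposite to Cd34, Erg and Msi2, and their part in those falls was not tested.

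Markers of other lineages were in large part under the threshold. Of 7 mast cell and basophil markers 4 lay under it, namely Cpa3, Mcpt4, Cma1 and Fcer1a, while Mcpt8 fell by 0.74. Mcpt8 read 7.41 on Meis1 deleted replicate 1 and 6.78 to 6.90 on the other deleted arrays. Ms4a2 rose by 0.20 at 1 of its 2 tested probe sets, with overlapping groups (adjusted p = 0.0483). Tpsb2 did not pass (0.11 ± 0.09, adjusted p = 0.396). The log2 of the summed level of this list was 7.78 to 8.12 in deleted and 8.23 to 8.34 in control arrays. Of 8 megakaryocyte and erythroid markers 6 were tested and 2 passed, both higher, of which Pf4 rose by 3.84 and Epor, named after its values were seen, rose by 0.22, while Itga2b did not pass (-0.21 ± 0.09, adjusted p = 0.104) and Gata1 and Gp1bb lay under the threshold. Their summed level was 10.5 to 10.6 in deleted and 8.23 to 8.29 in control arrays. This sum follows Pf4, which went from 6.43 to 10.27. At their highest probe sets, the other tested markers of the list changed by -0.21 to 0.22. Hba-a1 did not pass at its highest one (0.09 ± 0.05, adjusted p = 0.248), but 1 of its 2 tested probe sets passed lower. The lymphoid markers Cd79a and Cd3e did not pass (adjusted p = 0.264 and 0.197), and Pax5, Cd3g, Rag1 and Ebf1 lay under the threshold. Of 6 stromal and endothelial markers, 2 were tested and Pecam1 passed lower (-0.38 ± 0.10), while Col1a1, Col1a2, Col3a1 and Cdh5 lay under the threshold. Kdr did not pass (0.02 ± 0.08, adjusted p = 0.876). Pecam1 read 7.16 on Meis1 deleted replicate 1 and 7.54 to 7.69 on the other deleted arrays. The part of these markers in the results was not tested either.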

How the data were processed

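RNA from 8 samples (4 per group, 100 ng each) was turned into biotinylated cRNA and read on Affymetrix arrays of 1 colour, per the labels' protocols. The deposited values are log2 expression, 1 per probe set and array, judged from a range of 2.65 to 13.2 and array medians of 4.69 to 4.74, close to each other as in values normalized between arrays. The submitters' processing notes name MAS5 without a role. How probes were summarised and which genome build was used: not given in the sources used here. The values were used as deposited.

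After 104 control probe sets were set aside, the lowest 40% by mean were left out and 27022 probe sets were each tested with limma 3.58.1 in R 4.3.3 (lmFit, eBayes, Benjamini-Hochberg over all of them, threshold 0.05). A negative fold change means a lower level after the deletion, and errors are limma's SE. Symbols came from GEO's platform annotation (28898 probe sets with 1 symbol, 551 with several, 15588 unnamed here). The number of arrays limits the precision. The genes, lists and tests were chosen with earlier results of these data known. The naming rule took every probe set of the 10 genes, Meis1, Hoxa9, Flt3 and Sytl1, list genes that passed with a change of at least 1 or were among the 4 smallest p of their list, and the 3 highest markers per list; Fli1, Kit and markers under the threshold were named after their values were seen. No gene named by the rule had probe sets that passed in opposite directions. For genes named after their values were seen, the ETS factors included, other probe sets of the same gene were not compared. Replicate numbers are shared by the groups, but the deviations of same-numbered arrays correlated unevenly (-0.10, 0.28, -0.14 and 0.21). Only for replicate 2 was the same number the best partner.
The alternatives were other filters, normalizations, offsets and eBayes settings, array weights, replicate and array-set blocks, single array sets, 1 probe set per gene, and leaving out each array.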

Additional observations from a re-analysis of the deposited data

Results flagged for a closer look

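In 7 of 58 groups of 4 arrays examined, 1 array stood apart by Dixon's ratio, where chance flags about 1 in 20. Meis1 deleted replicate 1 did so for Msi2 1435521_PM_at (4.78, others 5.95 to 6.17), Mef2c 1451507_PM_at (6.68, others 6.34 to 6.37) and Hoxa9 (8.95, others 9.97 to 10.07). Meis1 deleted replicate 4 read 3.88 for Cd34 (others 4.03 to 4.05). Hoxa9 and Meis1 replicate 1 read 8.01 for Msi2 1436818_PM_a_at (others 8.13 to 8.15) and 3.36 for Mycn 1417155_PM_at (others 3.44 to 3.45), and replicate 4 of that group read 3.83 for Mecom 1422295_PM_at (others 4.13 to 4.18).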

How the results depend on the processing

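The count of 6 lower probe sets was 9 with array weights, 5 with no filter, the lowest 60% left out, trend and robust eBayes or the replicate block, 4 with 1 probe set per gene, 3 and 4 within array sets 1 and 2, and 5 to 7 with an array left out. The 1 higher probe set was 0 within array set 1 and array set 2, and 0 to 1 with an array left out. The 8450 probe sets called over the table were 3820 and 4315 within array sets 1 and 2, where fewer arrays were tested, 4206 with 1 probe set per gene, where 11836 were tested, and 6735 to 9818 with an array left out. Replicate numbers did not pair the arrays throughout (correlations -0.10, 0.28, -0.14 and 0.21), and with the replicate block 7928 probe sets passed and the higher count stayed 1. Signs turned for 6 probe sets, none of which passed with all arrays. Sox4 1419155_PM_a_at read 0.087 within array set 2. Sox4 1449370_PM_at read 0.0054 with quantile normalization, 0.027 with array weights, 0.015 with the array set as a block, 0.057 within array set 1, and -0.050 to 0.036 with an array left out. Mef2c 1451506_PM_at read -0.044 with array weights and -0.044 to 0.120 with an array left out. Hlf 1434735_PM_at read 0.050 with array weights, 0.025 within array set 1, and -0.058 to 0.032 with an array left out. Hoxa9 read 0.050 within array set 2 and Meis1 -0.013 within array set 1. The causes were not tested. No detection calls were used, so signal over background limits what can be said of low probe sets.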
